A study of Mus musculus with 4 samples.

Results

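The 10 genes described here encode the interleukin-1 and interleukin-18 cytokines, the interleukin-1 receptor antagonist and the core of the inflammasome: Il1a, Il1b, Il1rn, Il18, Nlrp3, Nlrc4, Aim2, Casp1, Casp4 and Pycard. They are 10 of 21755 protein-coding genes of the GENCODE M21 annotation and were chosen by name. Every accessible region overlapping a gene body or the 10 kb on either side of it was assigned to that gene, which gave 98 of 155546 regions. Accessibility was measured by ATAC-seq, in which the Tn5 transposase cuts open chromatin, in microglia, the resident macrophages of the brain. The cells were sorted by flow cytometry, after isolation without enzymes, from untreated C57BL/6 mice aged 3 months. There were 2 WT libraries and 2 libraries labelled IRF8KO, for a knockout of the transcription factor IRF8. The comparison addressed how accessibility at these genes differs between the genotypes. How Irf8 was removed, in which cells, and from how many animals each library came is not given in the sources used here. Each p-value therefore measures only the spread between these libraries, which may be technical. In the tests of single regions that spread is in part borrowed from all the regions compared.

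Interleukin-1 beta and interleukin-18 are made as inactive precursors. A sensor protein such as NLRP3, NLRC4 or AIM2 recruits the adaptor ASC, the product of Pycard, and the complex activates caspase-1, which cleaves the precursors and gasdermin D. Microglia are a main source of these cytokines in the brain, and IRF8 is a lineage factor of microglia and other myeloid cells that binds DNA with PU.1 at composite ETS-IRF elements.

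A strict peak was a deposited peak with a −log10 q of 2 or more. Overlapping strict peaks, pooled over the libraries, formed the regions. The level of a region in a library was the summit pileup, the depth of extended cut sites at the top of the peak, per 1000000 tags of that library, written PPM. Pileups and q-values are the authors' peak scores, and coordinates are those of GRCm38, counted from 1.

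Bases from 9 regions described below are printed first. The first 3 were picked because they are the lower regions with an ETS-IRF match, and the next 2 are lower regions without one. The other 4 were higher in IRF8KO or called only there. Because of this choice the printed set shows no contrast in motifs, whose counts over all regions are given with the results. Each was read from GRCm38 within 100 bp of the strongest summit, on the strand of the gene, without exonic bases at the starts. Capitals mark matches on either strand to the ETS-IRF composite GGAANNGAAA, the interferon-stimulated response element (ISRE) GAAANNGAAA, AP-1 TGANTCA, CEBP TTGCNNAA and STAT TTCCNGGAA, and a sequence without capitals held none of the 8 motifs searched in the bases printed.
Il1b, upstream region lower in IRF8KO, chr2:129380320-129380520, minus strand: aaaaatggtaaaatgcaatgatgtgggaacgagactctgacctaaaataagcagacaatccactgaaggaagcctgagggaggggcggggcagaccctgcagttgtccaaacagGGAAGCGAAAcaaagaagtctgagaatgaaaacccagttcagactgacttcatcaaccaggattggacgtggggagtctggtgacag
Il18, upstream region lower in IRF8KO, chr9:50552020-50552220, plus strand: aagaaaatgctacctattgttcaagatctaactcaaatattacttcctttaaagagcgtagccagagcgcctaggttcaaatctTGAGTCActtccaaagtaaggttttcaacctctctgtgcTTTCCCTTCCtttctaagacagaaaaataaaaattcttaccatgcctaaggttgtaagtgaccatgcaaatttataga
Aim2, intronic region lower in IRF8KO, chr1:173430413-173430613, plus strand: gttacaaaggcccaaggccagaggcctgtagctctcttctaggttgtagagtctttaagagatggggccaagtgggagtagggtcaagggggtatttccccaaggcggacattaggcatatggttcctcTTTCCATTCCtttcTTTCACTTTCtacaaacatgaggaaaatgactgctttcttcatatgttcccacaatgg
Il1a, promoter region lower in IRF8KO, chr2:129310125-129310325, minus strand: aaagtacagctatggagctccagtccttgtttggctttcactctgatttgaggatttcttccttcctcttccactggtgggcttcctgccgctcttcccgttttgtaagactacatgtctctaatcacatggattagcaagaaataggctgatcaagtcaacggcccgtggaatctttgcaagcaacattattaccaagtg
Il18, region farther upstream lower in IRF8KO, chr9:50547988-50548188, plus strand: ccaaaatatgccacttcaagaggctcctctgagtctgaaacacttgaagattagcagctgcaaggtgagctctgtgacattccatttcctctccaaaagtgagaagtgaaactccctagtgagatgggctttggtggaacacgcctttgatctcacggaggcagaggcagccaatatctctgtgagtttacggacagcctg
Il1rn, upstream region higher in IRF8KO, chr2:24335387-24335587, plus strand: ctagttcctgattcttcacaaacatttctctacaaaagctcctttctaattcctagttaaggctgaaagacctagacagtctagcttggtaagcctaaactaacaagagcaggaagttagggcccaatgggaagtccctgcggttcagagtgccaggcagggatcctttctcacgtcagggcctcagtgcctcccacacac
Il1rn, bases before the internal starts, higher in IRF8KO, chr2:24345155-24345287, plus strand: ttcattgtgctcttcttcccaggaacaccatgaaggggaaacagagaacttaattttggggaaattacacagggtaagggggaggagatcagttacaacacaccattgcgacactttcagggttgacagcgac
Nlrc4, bases before the start, called in IRF8KO, chr17:74459143-74459309, minus strand: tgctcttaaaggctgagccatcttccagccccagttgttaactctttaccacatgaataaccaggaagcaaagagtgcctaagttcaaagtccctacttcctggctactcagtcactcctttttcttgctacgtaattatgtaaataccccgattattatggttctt
Il18, region beyond the 3′ end, higher in IRF8KO, chr9:50590930-50591130, plus strand: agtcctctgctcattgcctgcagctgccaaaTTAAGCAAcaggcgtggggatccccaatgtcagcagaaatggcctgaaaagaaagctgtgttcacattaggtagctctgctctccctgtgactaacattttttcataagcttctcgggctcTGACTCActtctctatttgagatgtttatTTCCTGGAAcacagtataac

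The libraries differed in depth along with genotype. WT held 46948938 and 48896408 tags and IRF8KO 78793572 and 66224648, and tag size was 50 bp in WT and 49 bp in IRF8KO, so genotype, depth and tag size cannot be told apart. Over the 58550 regions with a deposited peak in all 4 libraries, the median level was 0.767 and 0.614 PPM in WT and 0.444 and 0.695 in IRF8KO, a shift of -0.30 on the log2 scale. Fold and log2 differences below are therefore given after centring each library on that median, while levels in PPM are printed uncentred. Where groups are said to overlap or not, this held on both scales unless stated. The promoter region of Irf8 was 2.07 and 1.49 PPM in WT and 0.863 and 1.36 in IRF8KO (log2 difference -0.39, SE 0.22, adjusted p = 0.198), which does not check the label. Of 7 microglial marker promoters, all had a strict peak in WT replicates 1 and 2, and 6 of 7 in IRF8KO replicates 1 and 2. Sall1, a microglial transcription factor, stood at 2.17 and 2.04 PPM in WT and at no peak and 0.136 in IRF8KO. Of the 6 shared microglial promoters, 2 were lower in IRF8KO, P2ry12 (log2 difference -1.24, SE 0.21, adjusted p = 1.28e-06) and Cx3cr1 (-0.48, SE 0.18, adjusted p = 0.0411). Among markers of other cells, the summed promoter level of 4 border macrophage genes was 0.788 and 0.614 in WT and 1.87 and 3.02 in IRF8KO, with Lyve1 and Cd163 without a promoter region in any library. That of 7 neutrophil genes was 0.426 and 0.327 in WT and 1.03 and 1.63 in IRF8KO, with S100a9, Ltf, Elane and Ly6g without one. That of 5 monocyte genes was between 0.128 and 0.511 in the 4 libraries, with Ly6c2, Ccr2 and Plac8 without one. That of 3 endothelial genes was 6.73 and 5.54 in WT and 0.926 and 1.34 in IRF8KO. Lists for astrocytes, neurons and lymphocytes, also uncentred, summed to less in each IRF8KO library than in either WT library: 0.916 and 0.491 in WT against 0.355 and 0.242 for 4 astrocyte genes, 0.682 and 0.859 against 0.343 and 0.468 for 3 neuronal genes, and 0.234 and 0.225 against 0.140 and 0 for 3 lymphocyte genes. Aqp4, Cd3e and Cd79a had no promoter region in any library. What part these marker differences have in the results below was not tested.

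The windows of the 10 genes held similar numbers of peaks in each genotype. There were 71 and 62 strict peaks in WT and 69 and 78 in IRF8KO, means of 66.5 ± 6.36 and 73.5 ± 6.36 (SD, n = 2 each). The groups overlapped, and the difference of 7 gave an exact two-sided permutation p of 0.667, where 0.333 is the smallest that 2 against 2 libraries allow. The number without WT replicate 1 or IRF8KO replicate 1 was 11.5 and without either of the others 2.5. Of the 98 regions, 62 lay in introns and 25 between genes, and 74 were nearest to the start of one of the 10 genes. Casp1 and Casp4 are neighbours, and 8 regions lay in the windows of both.

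A small number of regions were called in 1 genotype and not in the other. WT-specific regions, strict in WT replicates 1 and 2 and with no deposited peak in IRF8KO, numbered 2 of 98, where 5.58% of all regions were WT-specific. IRF8KO-specific regions, defined the other way round, numbered 5 of 98, where 3.86% of all regions were. The WT-specific count became 6 without WT replicate 1, 7 without WT replicate 2 and 5 without IRF8KO replicate 2, where 16.1%, 13.3% and 9.15% of all regions were WT-specific. The IRF8KO-specific count became 8, 16 and 9 without WT replicate 1, IRF8KO replicate 1 and IRF8KO replicate 2, where 5.53%, 13.5% and 12.6% of all regions were IRF8KO-specific.

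Among the 52 regions with a peak in all 4 libraries, called shared here, 13 were higher in IRF8KO and 12 were lower at an adjusted p under 0.05 (limma, Benjamini-Hochberg over all shared regions). Over all shared regions 13.3% were higher and 12.5% lower, so 48.1% of the genes' shared regions passed against 25.8% of all. The genes were chosen with results of these data known, and nothing particular to them is read from this. The median log2 difference was -0.03 over the 52 regions and -0.00 over all. Without centring, 3 regions were higher and 5 lower, where 2.81% and 6.82% of all shared regions were, and without WT replicate 1 the lower regions numbered 7, where 8.49% of all were. In bulk libraries, fewer cells with an open region and less opening per cell cannot be told apart.

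**Figure D1:**
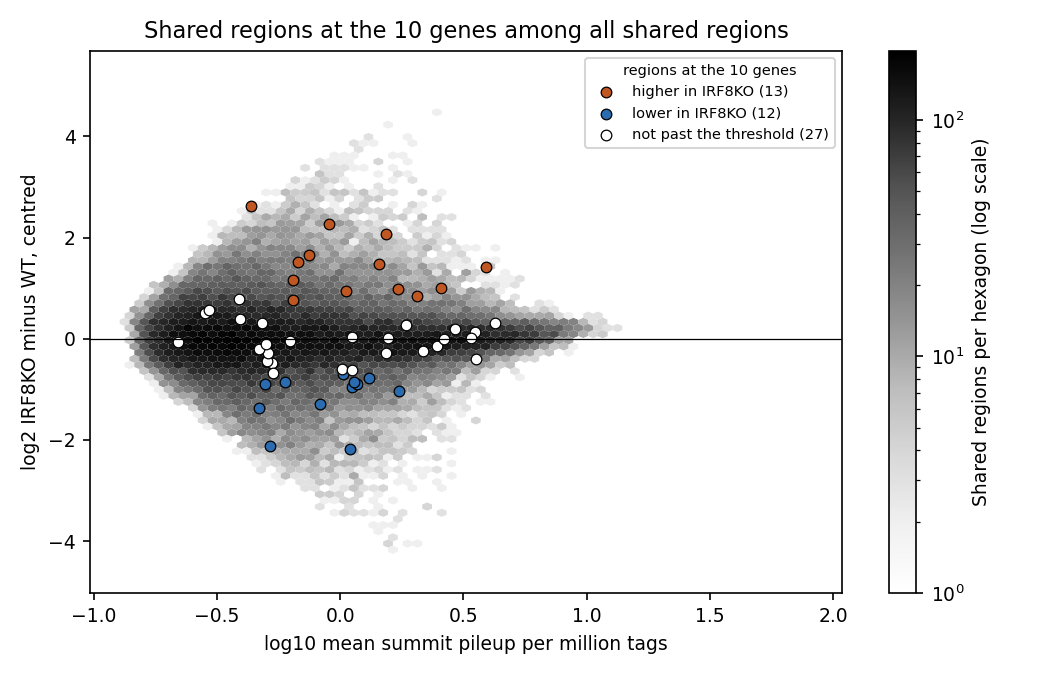
Each of the 58550 shared regions is placed by the log10 of its mean summit pileup in PPM (x axis) and its centred log2 difference, IRF8KO minus WT (y axis). Grey hexagons count all shared regions on a log scale, and circles are the 52 at the 10 genes: 13 higher in IRF8KO, 12 lower and 27 not past an adjusted p of 0.05.

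Several regions at the genes for the agonist cytokines were lower in IRF8KO. Of 10 shared regions at Il1a and Il1b, 5 were lower, none was higher, and the median log2 difference was -0.54. The 2 genes lie close together on chromosome 2. They encode interleukin-1 alpha, which is active as a precursor, and interleukin-1 beta, which must be cleaved. The promoter region of Il1a (chr2:129309850-129310356) was 1.17 and 1.33 PPM in WT and 0.406 and 0.423 in IRF8KO. Both WT libraries were above both IRF8KO libraries, the log2 difference was -1.29 (SE 0.28, adjusted p = 0.000185), and WT was 2.44-fold higher.

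Il1b had no promoter region to compare. No deposited peak of any strength lay within 1 kb of its start in any library (0, 0, 0 and 0 peaks). Its strongest region lay 2053 bp upstream in an exon of Il1bos, a non-coding gene (chr2:129373192-129373859), and reached 3.26 and 2.78 PPM in WT and 2.44 and 3.17 in IRF8KO. There the groups overlapped before centring and not after it, and the difference did not pass the test (log2 0.19, SE 0.18, adjusted p = 0.497).

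The clearest loss at Il1b was farther upstream. The region 9135 bp before the start (chr2:129380274-129380724), between genes, was 2.02 and 1.70 PPM in WT and 0.343 and 0.317 in IRF8KO. The groups did not overlap, and WT was 4.55-fold higher (log2 difference -2.19, SE 0.27, adjusted p = 6.41e-10). Its summit window, the first printed above, holds the ETS-IRF composite at chr2:129380397-129380406. The neighbouring region at 9660 bp, named after its values were seen, was 1.79 and 1.37 in WT and 0.584 and 0.740 in IRF8KO (log2 difference -0.95, SE 0.24, adjusted p = 0.00156). Its adjusted p was 0.0763 without centring, where the log2 difference was -1.25.

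The region of the Il1a window with the highest mean over the 4 libraries (chr2:129297085-129297504), at the start of the neighbouring gene Ckap2l, was 4.56 and 3.82 PPM in WT and 3.30 and 5.27 in IRF8KO, overlapping before centring and not after it, and did not pass the test (log2 difference 0.30, SE 0.16, adjusted p = 0.173). In WT alone a region 9930 bp upstream (chr2:129319902-129320465), named after its values were seen, had a higher mean. It was 5.32 and 3.56 in WT and 2.58 and 2.81 in IRF8KO, a difference that did not pass the test (log2 -0.39, SE 0.18, adjusted p = 0.0956). Other regions of Il1a were less even. The lower calls at 3623 bp inside the gene and 4993 bp upstream had log2 differences of -0.70 (adjusted p = 0.031) and -0.84 (adjusted p = 0.0305). Both were named after their values were seen. The first lost its call without WT replicate 1 (adjusted p = 0.34), IRF8KO replicate 1 (0.212) or IRF8KO replicate 2 (0.0533) and without centring (0.211). The second lost it without WT replicate 1 (0.0906), WT replicate 2 (0.192) or IRF8KO replicate 2 (0.304), without centring (0.173) and with quantile normalisation (0.0594). A region 742 bp upstream of Il1a, also chosen after its values were seen, held an ETS-IRF match and was 1.64 and 1.29 PPM in WT, 0.254 in IRF8KO replicate 1 and without a deposited peak in IRF8KO replicate 2. It was neither shared nor genotype-specific, so it was not tested. An IRF8KO-specific region of Il1a lay in an intron 660 bp from the start (chr2:129309103-129309312), at 0.355 and 0.544 PPM in IRF8KO and with no deposited peak in WT.

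At the gene of the antagonist the comparison rested mainly on 1 region, which was higher in IRF8KO. The contrast with the agonist genes was not itself tested. Il1rn encodes a secreted protein that occupies the interleukin-1 receptor without signalling, and it had 6 regions, of which 2 were shared and both passed the test as higher in IRF8KO, 1 of them with a limit given below. The region at its internal starts (chr2:24345116-24345511), from which further transcripts are annotated, was 0.575 and 0.205 PPM in WT and 0.977 and 1.84 in IRF8KO. Both IRF8KO libraries were above both WT libraries, though WT replicate 1 stood nearer to them than WT replicate 2. The log2 difference was 2.27 (SE 0.30, adjusted p = 2.52e-09), a 4.83-fold higher level in IRF8KO.

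The outermost starts of Il1rn had no deposited peak within 1 kb in any library. The other shared region began just outside that distance, 1073 bp upstream (chr2:24335214-24335780). It was 0.128 and 0.164 PPM in WT, where neither peak was strict (−log10 q of 0.534 and 1.59), and 0.622 and 0.831 in IRF8KO, where both were (38.5 and 50). The log2 difference was 2.62 (SE 0.35, adjusted p = 7.47e-09), but the region entered the comparison only through its IRF8KO peaks, so its direction was favoured by the filter and does not add to that at the internal starts. Of the other myeloid markers, the promoters of Mrc1 and Pf4, 2 of 4 border macrophage genes, and of Mmp8, 1 of 7 neutrophil genes, were also higher in IRF8KO, and their part in the higher Il1rn regions was not tested.

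Regions of Il18 were lower around its start and higher beyond its far end. Of its 8 shared regions, 4 were lower in IRF8KO, 1 was higher, and the median log2 difference was -0.68. Interleukin-18 drives interferon gamma production by lymphocytes. The promoter region (chr9:50554611-50555083) was 2.0 and 1.25 PPM in WT and 0.558 and 0.861 in IRF8KO. The groups did not overlap (log2 difference -0.88, SE 0.24, adjusted p = 0.00303), but the adjusted p was 0.138 without WT replicate 1 (log2 difference -0.70) and 0.0975 without centring, where the log2 difference was -1.19.

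Upstream of Il18, 3 of 4 shared regions were lower. The one with the largest difference, 6608 bp before the start (chr9:50547848-50548219) in an intron of Bco2, was 1.11 and 0.654 PPM in WT and 0.127 and 0.196 in IRF8KO, 4.37-fold higher in WT (log2 difference -2.13, SE 0.34, adjusted p = 5.32e-07). Its peak in IRF8KO replicate 1 was not strict (−log10 q of 1.30). The pileup there was 10, where the lowest deposited in that library was 8, so the fold is uncertain. The region 2636 bp upstream, printed above for its ETS-IRF match at chr9:50552143-50552152, was 0.831 and 0.552 in WT and 0.241 and 0.362 in IRF8KO (log2 difference -0.89, SE 0.32, adjusted p = 0.0297). That call rested on every library and was lost without any 1 of them. The log2 difference was then -0.76 and -1.03 without WT replicates 1 and 2, and -0.92 and -0.86 without IRF8KO replicates 1 and 2. The call was also lost without centring (-1.20, adjusted p = 0.154). The region at 2277 bp, named like the one before it after its values were seen, was 1.94 and 1.64 in WT and 0.812 and 0.876 in IRF8KO (log2 difference -0.77, SE 0.23, adjusted p = 0.00736). It lost its call without WT replicate 1 (log2 difference -0.81), WT replicate 2 (-0.74) or IRF8KO replicate 2 (-0.51), and without centring (-1.08, adjusted p = 0.134). The region 882 bp upstream, also named after its values were seen, did not pass the test (log2 difference -0.59, adjusted p = 0.0691).

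Beyond the 3′ end of Il18, and nearest to the start of Sdhd, a subunit gene of succinate dehydrogenase, a region rose in IRF8KO (chr9:50590856-50591407). It was 0.745 and 0.614 PPM in WT and 1.80 and 2.97 in IRF8KO, 4.23-fold higher (log2 difference 2.08, SE 0.23, adjusted p = 6.79e-12). Its mean over the 4 libraries was the highest of the Il18 window, though in WT 5 other regions there had a higher mean, and its printed bases hold 1 match each to the AP-1, CEBP and STAT motifs. Which gene it serves was not measured.

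**Figure D2:**
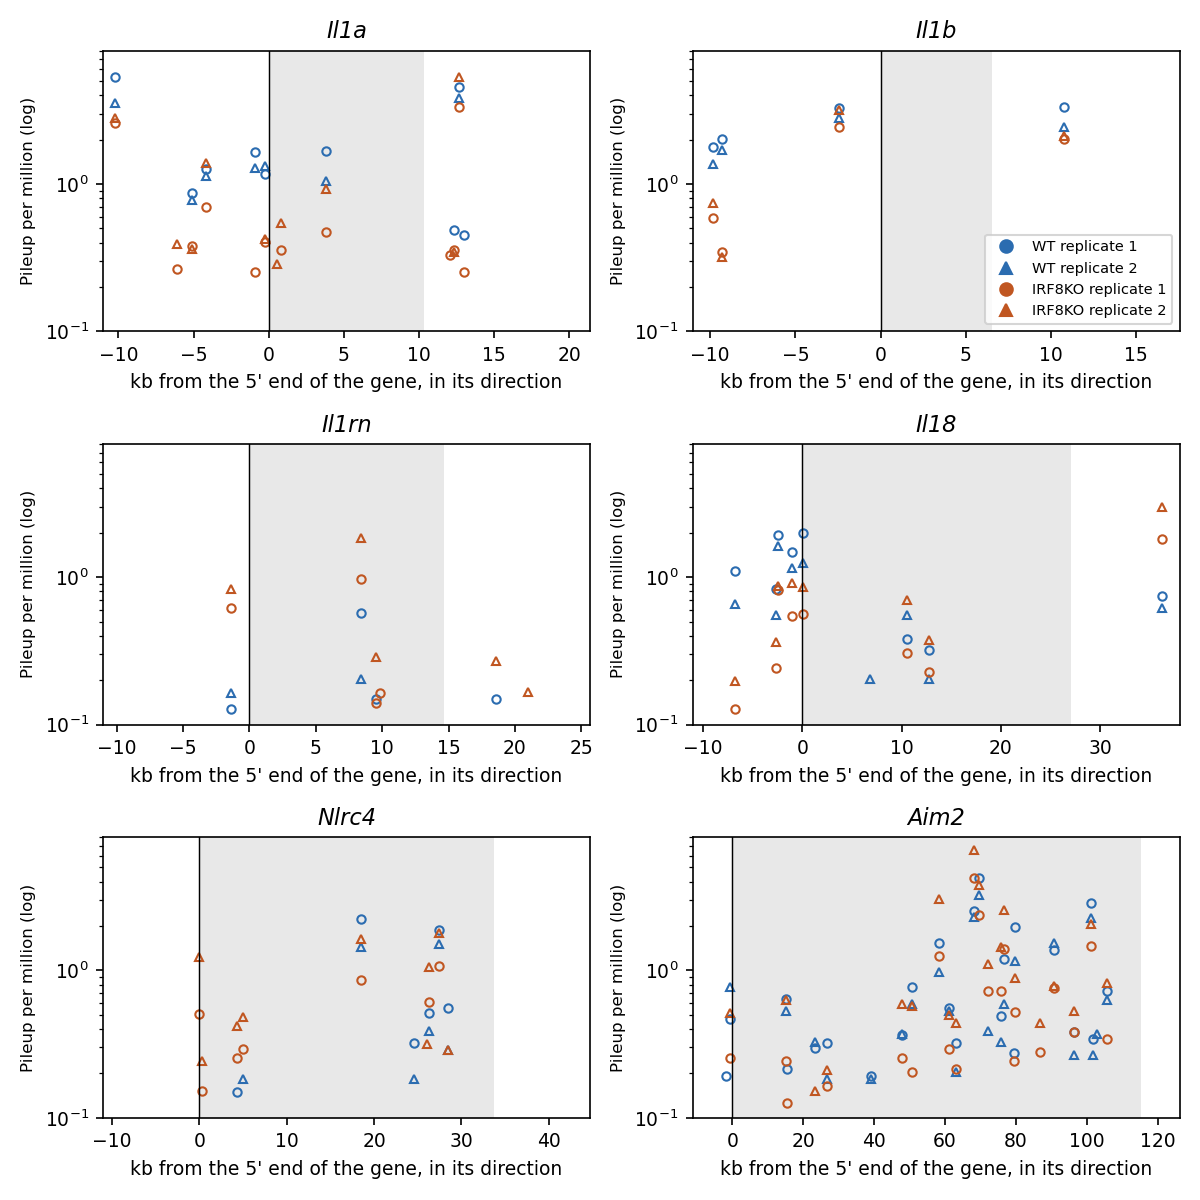
Summit pileup in PPM (log y axis) of each region by its distance in kb from the 5′ end of the gene, in the direction of transcription (x axis), for 6 genes. Grey marks the gene body, blue is WT and orange IRF8KO, and circles and triangles are replicates 1 and 2. Libraries without a deposited peak have no symbol. Blue lies above orange at the regions farthest upstream of Il1b and Il18, and orange above blue at the 2 shared regions of Il1rn and at the start of Nlrc4, where no blue symbol is drawn.

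Among the sensors the promoters of Nlrp3 and Aim2 did not pass the test, while Nlrc4 had promoter peaks in both IRF8KO lists and in neither WT list. The 3 genes held 27 shared regions, of which 8 were higher and 2 lower in IRF8KO, with a median log2 difference of 0.01. NLRC4 answers to bacterial flagellin and secretion system proteins presented by NAIP proteins. Its promoter region (chr17:74459049-74459400) had no deposited peak in WT and stood at 0.508 and 1.24 PPM in IRF8KO, with −log10 q of 28.1 and 79.4. Counting every region within 1 kb of a start of the 10 genes, 24 regions, 3 were IRF8KO-specific, 2 at Nlrc4 and 1 at Il1a, and 0 were WT-specific. Over all regions within 1 kb of a start, 2.37% were IRF8KO-specific and 2.7% WT-specific.

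At the lower IRF8KO level the WT libraries would have had a pileup of 23.8 and 24.8 at the Nlrc4 start, and the lowest deposited pileup anywhere in either was 6, which is not the calling limit at that site. A weaker IRF8KO-specific region lay 191 bp inside Nlrc4 (chr17:74458788-74458951), at 0.152 and 0.242 PPM, where the same calculation gave 7.15 and 7.45, close to that lowest pileup. The region of the gene with the highest mean over the 4 libraries, though not in WT alone, was intronic (chr17:74431572-74431922). It was 1.87 and 1.51 in WT and 1.07 and 1.78 in IRF8KO (log2 difference 0.02, SE 0.21, adjusted p = 0.974). An intronic region beside it (chr17:74432654-74432948) was 0.511 and 0.389 in WT and 0.609 and 1.06 in IRF8KO (log2 difference 1.15, SE 0.29, adjusted p = 0.00132, and 0.378 without centring).

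NLRP3 responds to many forms of cell damage and ion flux. The promoter region of Nlrp3 (chr11:59542329-59542985) had the highest mean level of the 9 promoter regions in either genotype, 4.54 and 2.97 PPM in WT and 2.83 and 3.79 in IRF8KO. The groups overlapped, with a log2 difference of 0.14 (SE 0.17, adjusted p = 0.618). Of its 7 shared regions, 3 were higher and 1 lower. An intronic region at 11469 bp (chr11:59554225-59554506) was 0.383 and 0.429 in WT and 0.863 and 1.03 in IRF8KO (log2 difference 1.52, SE 0.29, adjusted p = 2.39e-05, and 0.133 without centring). One at 19946 bp (chr11:59562702-59563174) was 0.660 and 0.757 in WT and 0.165 and 0.302 in IRF8KO (log2 difference -1.36, SE 0.33, adjusted p = 0.000962), with an adjusted p of 0.0691 without WT replicate 2. Regions of the same gene thus differed in opposite directions. The IRF8KO-specific region (chr11:59559691-59559915), also intronic, was 0.279 and 0.332 PPM in IRF8KO.

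AIM2 binds DNA in the cytosol. Its annotated gene body spans 115162 bp and 4 protein-coding starts, so its window held 26 regions, some nearest to other genes such as Cadm3. The promoter region (chr1:173420362-173420716) was 4.22 and 3.23 PPM in WT and 2.39 and 3.81 in IRF8KO, overlapping, with a log2 difference of 0.01 (SE 0.17, adjusted p = 0.975). A region 1228 bp upstream of the same start (chr1:173418889-173419370) was 2.53 and 2.31 in WT and 4.26 and 6.52 in IRF8KO, with the highest mean over the 4 libraries in the window, although in WT the promoter region was higher. It was 2.69-fold higher in IRF8KO (log2 difference 1.43, SE 0.17, adjusted p = 9.31e-11), but without centring the adjusted p was 0.0516.

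Further regions inside Aim2 differed in both directions. Those 5776 and 6756 bp downstream of that start were higher in IRF8KO, by 1.66 (SE 0.29, adjusted p = 2.88e-06) and 1.48 (SE 0.23, adjusted p = 3.65e-07) on the log2 scale, with adjusted p of 0.0763 and 0.0881 without centring. The region at 9782 bp, printed above for its ETS-IRF match at chr1:173430542-173430551 and its ISRE match, was lower: 1.98 and 1.17 PPM in WT and 0.520 and 0.891 in IRF8KO (log2 difference -0.85, SE 0.24, adjusted p = 0.00495). It was named after its values were seen. It lost its call without WT replicate 1 (log2 difference -0.63) or IRF8KO replicate 1 (-0.79), and without centring (-1.16, adjusted p = 0.113). An IRF8KO-specific region at chr1:173437597-173437859 was 0.279 and 0.438 in IRF8KO. A WT-specific one at chr1:173389953-173390270 was 0.192 and 0.184 in WT, nearest to Cadm3, and neither of its peaks reached a −log10 q of 5.

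Promoters of the caspase and adaptor genes gave 1 call, at Casp4. Of 4 shared regions at Casp1 and Casp4, 2 were higher in IRF8KO and 1 lower. Casp1, the gene of the caspase that matures both cytokines, had a promoter region (chr9:5298114-5298785) at 2.11 and 1.64 PPM in WT and 1.65 and 2.02 in IRF8KO, where the groups overlapped before centring and not after it, and the difference did not pass the test (log2 0.28, SE 0.20, adjusted p = 0.347). The promoter region of Casp4 (chr9:5308534-5309125), whose product senses lipopolysaccharide in the cytosol, was 1.62 and 1.68 in WT and 2.02 and 2.87 in IRF8KO. Groups did not overlap (log2 difference 0.85, SE 0.20, adjusted p = 0.000472), yet the adjusted p was 0.0606 without WT replicate 1 and 0.529 without centring.

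The other regions of this pair were smaller or farther away. In an intron of Casp1 a WT-specific region (chr9:5300101-5300323) was 0.341 and 0.429 PPM in WT and had no deposited peak in IRF8KO. The lower region (chr9:5344140-5344420) lay beyond Casp4 and nearest to Casp12, at 3.02 and 1.82 in WT and 0.596 and 1.46 in IRF8KO (log2 difference -1.02, SE 0.22, adjusted p = 0.000185, and 0.0665 without IRF8KO replicate 1), and was named after its values were seen. The single shared region of Pycard, at its start (chr7:127993290-127993978), was 0.447 and 0.695 in WT and 0.330 and 0.529 in IRF8KO, overlapping (log2 difference -0.11, SE 0.32, adjusted p = 0.853).

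**Figure D3:**
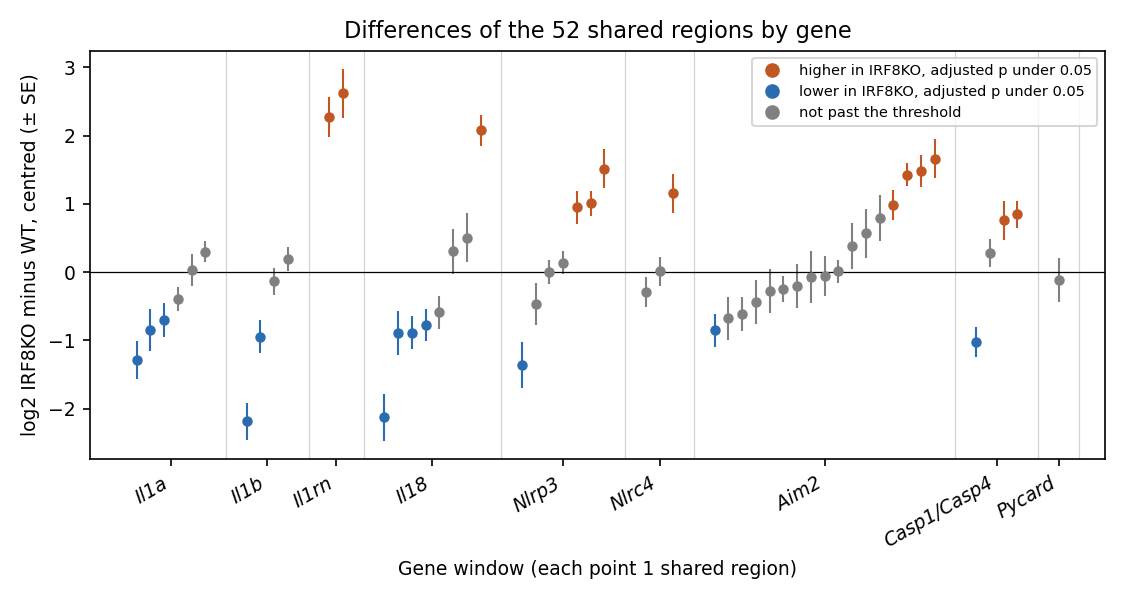
Centred log2 difference, IRF8KO minus WT (y axis), of the 52 shared regions, ordered by size within each gene (x axis), with bars of 1 SE. Orange points are higher and blue points lower in IRF8KO at an adjusted p under 0.05, and grey points did not pass. Il1a and Il1b hold no orange point and Il1rn no blue or grey one.

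The order of the promoters by level was the same at the top in both genotypes and differed below it. By mean level Nlrp3 and Aim2 came first and second in both genotypes, at 3.75 ± 1.11 and 3.72 ± 0.697 PPM in WT and 3.31 ± 0.679 and 3.10 ± 1.0 in IRF8KO (SD, n = 2 each), within each other's spread. Casp1 at 1.87 ± 0.334, Casp4 at 1.65 ± 0.0412 and Il18 at 1.62 ± 0.534 followed in WT and did not differ beyond their spread. Il1a came next at 1.25 ± 0.112, above Pycard at 0.571 ± 0.175 and Il1rn at 0.390 ± 0.262. In IRF8KO, Casp4 at 2.44 ± 0.602, Casp1 at 1.84 ± 0.264 and Il1rn at 1.41 ± 0.612 came next, Nlrc4 stood at 0.873 ± 0.517 and Il18 at 0.710 ± 0.214, and Pycard at 0.429 ± 0.140 and Il1a at 0.414 ± 0.0118 were last. Of these promoter regions, for each gene the one within 1 kb of a start with the highest mean over the 4 libraries, an absent peak counting as 0, 8 were shared. In WT alone the Il1a region 742 bp upstream was higher than the one used. Those of Il1rn and Casp4 were higher and those of Il1a and Il18 lower. Counting every region within 1 kb of a start of the 10 genes, 13 were shared, 3 were higher and 2 lower, the further higher one lying 336 bp inside Casp1, where 6.83% of all shared regions within 1 kb of a start were higher and 7.75% lower. The Casp1 region at 336 bp, named after its values were seen (log2 difference 0.76, SE 0.29, adjusted p = 0.0393), lost its call without any 1 library (adjusted p of 0.117 and 0.165 without WT replicates 1 and 2, 0.218 and 0.0737 without IRF8KO replicates 1 and 2) and without centring (0.687).

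**Figure D4:**
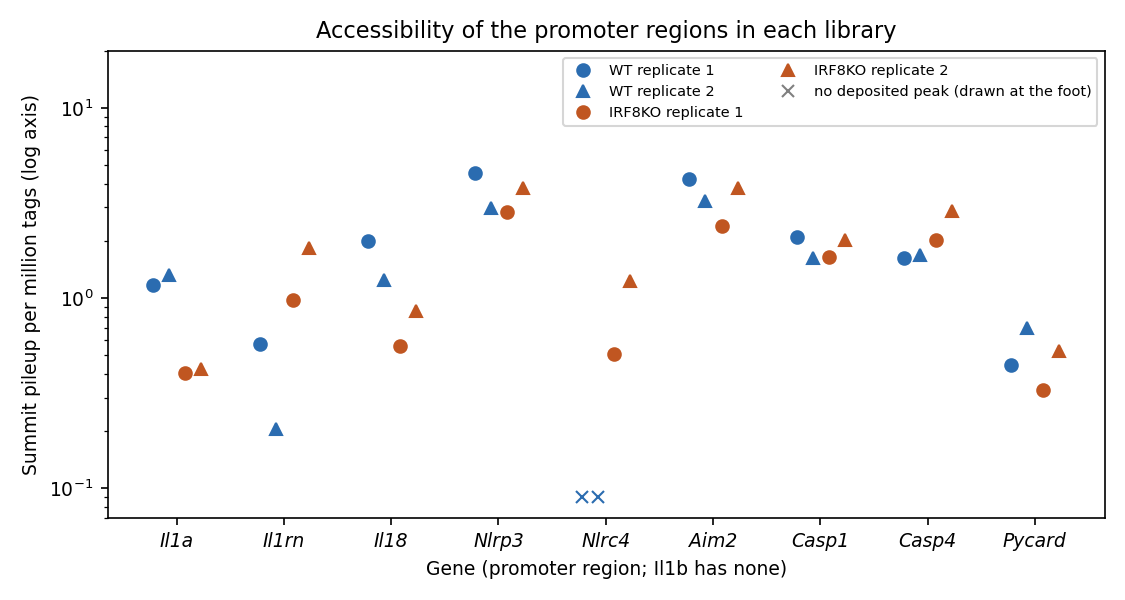
Summit pileup in PPM (log y axis) of the promoter region of each gene (x axis) in the 2 WT libraries (blue) and the 2 IRF8KO libraries (orange), with circles for replicate 1 and triangles for replicate 2. Crosses mark libraries without a deposited peak. Il1a and Il18 have both blue symbols above both orange ones, Il1rn and Casp4 the reverse, and Nlrc4 has crosses in WT.

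The motifs in the summit windows were counted in the lower, higher and other shared regions. The ETS-IRF composite was present in 3 of the 12 lower regions, at Il1b, Il18 and Aim2, in 0 of the 13 higher regions and in 1 of the 27 others. Over all shared regions it was present in 12.6% of those lower in IRF8KO, 2.57% of those higher and 2.80% of the rest. Of all 98 regions, 7 held it (7.14%), against 4.30% of all regions. The CEBP motif was present in 4 of the 13 higher regions, 0 of the 12 lower ones and 4 of the 27 others. Over all shared regions it was present in 17.1%, 8.13% and 8.39%. AP-1 was present in 3, 2 and 2 of these, against 17.5%, 7.18% and 6.50%. PU.1 (GAGGAAGT) was present in 0, 1 and 7, against 12.8%, 15.6% and 9.36%, an order that differed from that over all shared regions. The ISRE was present in 0, 2 and 3, against 3.05%, 5.56% and 2.86%. Of all 98 regions 8 held the ISRE, 8.16% against 3.13% of all regions. RUNX, NF-kB and STAT were each present in at most 1 region of any of these groups. With so few regions these counts are descriptions, and a match is not a measured binding site.

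Beyond the 10 genes, 34 genes of the same pathways were examined by the same windows. The Casp12 window overlaps that of Casp4, and its 2 regions, 1 of them the lower region beyond Casp4, are counted in both sets. Of their 142 shared regions, 29 were higher and 22 lower in IRF8KO, and of their 289 regions 16 were WT-specific and 17 IRF8KO-specific. Over all shared regions 13.3% were higher and 12.5% lower, and over all regions 5.58% were WT-specific and 3.86% IRF8KO-specific. At their promoters, 27 regions were shared, of which 5 were higher and 7 lower, and 1 further promoter region was IRF8KO-specific and 0 WT-specific. These are 1 region a gene, and 6.83% and 7.75% of all shared regions within 1 kb of a start were higher and lower. Among the receptors, the promoter region of Il1r1, the signalling receptor of interleukin-1, was 0.341 and 0.164 PPM in WT and 0.457 and 0.846 in IRF8KO (log2 difference 1.70, SE 0.34, adjusted p = 4.77e-05). That of Il1r2, a decoy receptor without signalling, was 1.04 and 1.08 in WT and 0.330 and 0.317 in IRF8KO (log2 difference -1.41, SE 0.30, adjusted p = 0.000126). The accessory chain gene Il18rap had an IRF8KO-specific promoter region, at 0.254 and 0.513 in IRF8KO.

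Other promoters of the list followed no single direction. Those higher in IRF8KO also included Il18bp, whose product binds interleukin-18 (log2 1.2, adjusted p = 0.0102), the inhibitory kinase gene Irak3 (0.72, adjusted p = 0.0337), Pstpip1 (1.33, adjusted p = 0.00106) and Gbp2, a guanylate-binding protein gene (1.58, adjusted p = 5.12e-06). Those lower included Gsdmd, the gene of the pore-forming gasdermin D, at 0.958 and 0.859 in WT and 0.317 and 0.513 in IRF8KO (log2 difference -0.86, SE 0.29, adjusted p = 0.0186). The NAIP genes, which pair with NLRC4, had lower promoters as well, by -0.84 at Naip2, -1.50 at Naip5 and -2.74 at Naip6 on the log2 scale (adjusted p = 0.00326, 4.9e-07 and 1.51e-09). Neither IRF8KO peak at Naip6 was strict, so that region was compared only because of its WT peaks. Nlrp1a and Nlrp1b were lower by -0.57 and -0.73 (adjusted p = 0.0483 and 0.00127). The Naip and Nlrp1 genes are families of related copies, so reads may be split between them, which was not measured, and their values are uncertain. The alternatives were not run for these 34 genes.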

How the data were processed

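ATAC-seq peak lists of 2 WT and 2 IRF8KO microglial libraries were used, grouped by the labels. Per the labels, nuclei were tagmented with a Nextera kit and libraries amplified by 12 PCR cycles. The submitters' processing notes name bcl2fastq, Bowtie2, MACS2, deepTools and the build mm10. Peaks were called by the authors for every library on its own (MACS2 2.1.1.20160309, per the file headers) at a p cutoff of 0.01, without a control, moving cut sites by 37 bp and extending them to 73 bp. The deposited pileup is a signal: how many extended cut sites cover the summit, before any scaling. Fold enrichment, deposited by the authors as a ratio over local background, was not used in a test. The deposited p and q are −log10 values. A q column is present although the headers mark q as not computed, and its values were used. Any cutoff on q moves with depth.

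Strict peaks (−log10 q of 2 or more) on the 19 autosomes and chromosome X were merged into regions, and a library's level was the largest pileup of any deposited peak overlapping by 1 bp, per 1000000 header tags. Shared regions were compared on the log2 scale by limma 3.58.1 (R 4.3.3) with a trend, without a pseudocount, after centring on the median. Run on simulated data, the fit missed some of the regions given the smaller planted difference, so a region that did not pass may still differ. Genes were those of GENCODE M21, and a promoter region lay within 1 kb of a protein-coding start. All deposited peaks lay inside GRCm38 chromosomes (0 outside). Named regions were each gene's promoter region and strongest region (by the mean over the 4 libraries), every genotype-specific region and the 12 shared regions of largest difference past the threshold, and others are marked where they appear. The genes, lists and motifs were chosen with earlier results of these data known. Alternatives changed the q cutoff, the overlap, the window, the centring, a pseudocount of 0.1, the filter, the replicate block and the libraries.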

Additional observations from a re-analysis of the deposited data

How the results depend on the processing

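With 2 libraries a group, the counts of strict peaks and of called regions were recomputed without each library. The differences of the shared regions named at the 10 genes were recomputed too. Those 9930 bp upstream of Il1a and 882 bp upstream of Il18 were left out. A lone library was then assumed to vary like the others. WT-specific regions numbered 2 of 98 (5.58% of all regions), and became 0 of 68 at a −log10 q of 5 or more (5.16% of all), 1 of 98 under the stricter overlap rule (5.27%), 4 of 127 with 25 kb on either side (5.58%), and 3 to 7 with a library left out (6.39% to 16.1%). IRF8KO-specific regions numbered 5 of 98 (3.86% of all regions), and became 8 where absence meant no strict peak (5.55%) and 7 to 16 with a library left out (5.02% to 13.5%). Shared regions higher in IRF8KO numbered 13, and became 3 without centring (2.81% of all shared regions, 13.3% with it) and 11 to 12 with a library left out (8.26% to 10.2% of all). Lower regions numbered 12, and became 5 without centring (6.82% of all, 12.5% with it) and 7 to 10 with a library left out (8.29% to 8.97% of all). The difference in strict peaks, 7, was 2.5 to 11.5 with a library left out. The replicate block gave 13 higher and 13 lower regions. Libraries of the same number did not deviate together (correlation 0.00438), so the numbers are not taken to pair them, and the block ended no call.

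Of the 25 called regions, 6 stayed past the threshold in each of the 9 alternatives that included them: the Il1a promoter, the Il1b region 9135 bp upstream, both Il1rn regions, and the Il18 regions 6608 bp upstream and beyond the 3′ end. For 2 of these, the upstream regions of Il1rn and Il18, the filter on strict peaks in all 4 libraries left no test. The upstream Il1rn region entered the comparison only through its IRF8KO peaks, so the alternatives do not check its direction. Of the 25, 17 lost the call without centring, 1 with quantile normalisation, and 8, 5, 6 and 6 without WT replicates 1 and 2 and IRF8KO replicates 1 and 2. No direction of a called region reversed. Leaving out the centring moved every difference by -0.30. Lower regions that lost the call then had larger differences, and higher regions smaller ones. The depth gap limits IRF8KO-specific calls of low pileup, and weak regions absent from the lists were not measured.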
